A study of Arabidopsis thaliana with 17 samples.

Results

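The clusters described here are the 368 loci with the highest 24 nt siRNA levels in wild-type Arabidopsis flowers that a tagged copy of NRPD1 restored and that were nearly empty (under 0.5 RPKM) without NRPD1. They were taken from a table of 12939 siRNA clusters and make up 2.84% of it. A cluster was included when its mean in Col-0 was at least 100 RPKM (reads per kilobase, corrected for library size), when the mean of log2(RPKM + 1) in the rescued line lay less than 1 from that of Col-0, and when its mean in the nrpd1-3 mutant was under 0.5 RPKM. Levels in Col-0, in the rescued line and in nrpd1-3 were the values that the clusters were selected on, and they are given below as a description with no test.

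Small RNA sequencing of flowers covered 6 genotypes with 2 biological replicates each, 12 libraries in all. AAA-YPMF and CYC-AAAA are nrpd1-3 plants that carry NRPD1-3xFLAG with alanines in place of the first or of the second block of the CYC-YPMF motif (labelled Mut9 and Mut10). clsy1234 carries clsy1-7 and clsy2-1 together with clsy3-1 and clsy4-1, which are T-DNA insertions in the 4 CLSY genes, and has no transgene. nrpd1-3 is a T-DNA insertion mutant that lacks functional NRPD1. WT_D1 is nrpd1-3 with NRPD1-3xFLAG whose CYC-YPMF motif is intact, and Col-0 is the untransformed wild type. The transgenes were driven by the NRPD1 promoter, so AAA-YPMF and CYC-AAAA have WT_D1 as their closest control. The paper chose plants with strong expression of the tagged protein for its immunoprecipitation experiments. Expression of the transgene in the sequenced libraries is not known here. The deposited table holds RPKM without the cluster lengths, so read counts cannot be given beside the values.

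RNA polymerase IV, whose largest subunit is NRPD1, transcribes transposons and other silenced loci in plants. RDR2 copies these transcripts into double-stranded RNA and DCL3 cuts them into 24 nt siRNAs, which guide DNA methylation back to the same loci. The CLSY proteins bind Pol IV and bring it to its sites in chromatin, and the study examined the CYC-YPMF motif of NRPD1 as a docking site for them.

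Of the 12939 clusters, 659 had at least 100 RPKM in Col-0. Among these, 396 were within 1 of Col-0 on the log2 scale in WT_D1, 262 were lower by more than that and 1 was higher. The rescued line decided most exclusions, with 258 clusters that failed that condition only, 28 that failed the nrpd1-3 condition only and 5 that failed both. Just inside the Col-0 limit were merged_3_20629649 and merged_2_1123582 at 100.1 and 100.3 RPKM, and just outside were merged_1_12646032 and merged_3_11082673 at 99.99 and 99.85 RPKM. At the lower limit for the rescued line, merged_1_11019939 and merged_3_10765656 were inside at -0.998 and -0.997, while merged_1_7786928 and merged_4_6275832 were outside at -1.002 and -1.016. The excluded merged_4_6275832 had a Col-0 mean of 791.6 RPKM, higher than at any of the 368. At the upper limit, merged_5_15253131 and merged_5_19726154 were inside at 0.89 and 0.85 and merged_1_24395723 was outside at 1.03. For nrpd1-3, merged_2_5917698 and merged_1_21853577 were inside at 0.495 and 0.485 RPKM, and merged_3_105486 and merged_5_13708725 were outside at 0.51 and 0.515 RPKM.

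Sequences are shown for 5 clusters on which the description turns. They are the 2 clusters with the highest Col-0 level, the 2 that kept the largest share of the Col-0 level in AAA-YPMF, and the cluster that kept the largest share in clsy1234. Each is the plus strand of the first 150 bases from the position in the cluster's name, from the RefSeq copy of the TAIR10 nuclear chromosomes, in lower case throughout because no part was singled out. The windows lie at chr5:8813227-8813376, chr4:7250427-7250576, chr4:3766781-3766930, chr5:19967664-19967813 and chr3:8597881-8598030.
merged_5_8813227: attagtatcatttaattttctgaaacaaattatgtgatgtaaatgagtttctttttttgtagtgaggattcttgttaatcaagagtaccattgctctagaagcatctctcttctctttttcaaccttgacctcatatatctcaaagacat
merged_4_7250427: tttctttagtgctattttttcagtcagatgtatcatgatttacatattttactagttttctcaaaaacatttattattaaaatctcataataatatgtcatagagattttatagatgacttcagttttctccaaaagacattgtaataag
merged_4_3766781: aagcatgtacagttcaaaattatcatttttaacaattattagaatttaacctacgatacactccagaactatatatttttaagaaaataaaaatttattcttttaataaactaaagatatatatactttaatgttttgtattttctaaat
merged_5_19967664: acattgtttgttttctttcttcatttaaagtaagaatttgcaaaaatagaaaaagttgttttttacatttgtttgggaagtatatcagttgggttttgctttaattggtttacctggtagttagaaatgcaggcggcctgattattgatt
merged_3_8597881: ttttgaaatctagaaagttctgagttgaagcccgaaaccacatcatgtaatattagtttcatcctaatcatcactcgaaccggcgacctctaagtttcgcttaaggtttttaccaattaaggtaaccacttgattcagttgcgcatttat

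The 5 windows are rich in A and T. Their GC content was 30% in merged_5_8813227, 23.3% in merged_4_7250427, 18% in merged_4_3766781, 30% in merged_5_19967664 and 37.3% in merged_3_8597881. Over all 368 clusters, the first 300 bases had a median GC content of 29.7%, against 32% over the 12902 clusters on nuclear chromosomes.

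The 368 clusters lay on all 5 nuclear chromosomes, with 87, 73, 69, 59 and 80 on chromosomes 1 to 5. Their spread followed that of the whole table: chromosome 1 held 23.6% of them and 22.0% of all clusters, and chromosome 4 held 16.0% of them and 16.1% of all clusters. None of the 37 mitochondrial clusters was among them. Clusters of this kind stood mostly apart from each other, with a median distance of 77913 bases to the nearest other one, and 55 of 368 (14.9%) had another within 10 kb.

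Most of them started outside annotated genes, in gene-rich stretches. Each cluster was placed by the single base at its position. No transposon annotation was used, so an intergenic position can lie in a transposon. By the RefSeq annotation, the position of 315 (85.6%) was intergenic, against 75% of all nuclear clusters, and 284 of those 315 were within 2 kb of a gene. A further 43 (11.7%, against 10.4%) lay in protein-coding genes, 25 of them in exons and 18 in introns, and 3 lay in non-coding RNA genes. Pseudogenes held 7 of the clusters (1.90%) and 13.3% of all nuclear clusters. Within 100 kb on either side, the median number of coding genes was 48, against 39 over all nuclear clusters. Only 29 of the 368 (7.88%) had under 20 coding genes in those 200 kb, as found in pericentromeric regions, against 30.8% of all nuclear clusters.

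They were also less often repeated. The first 300 bases had another copy in the genome (at least 80% identity over at least 150 bases by BLAST) for 124 of the 368 clusters (33.7%), against 60.6% of all nuclear clusters, and at least 10 copies for 27 (7.34%), against 28.5%. Another siRNA cluster of any level was within 2 kb of 32.9% of them and of 52.9% of all nuclear clusters. The 291 clusters that had at least 100 RPKM in Col-0 but failed another condition were similar in most of these respects, with 82.8% intergenic and 7.22% in stretches with under 20 coding genes. They had other copies less often, at 21.0%. These differences in position were not tested, since neighbouring clusters are not independent.

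**Figure D1:**
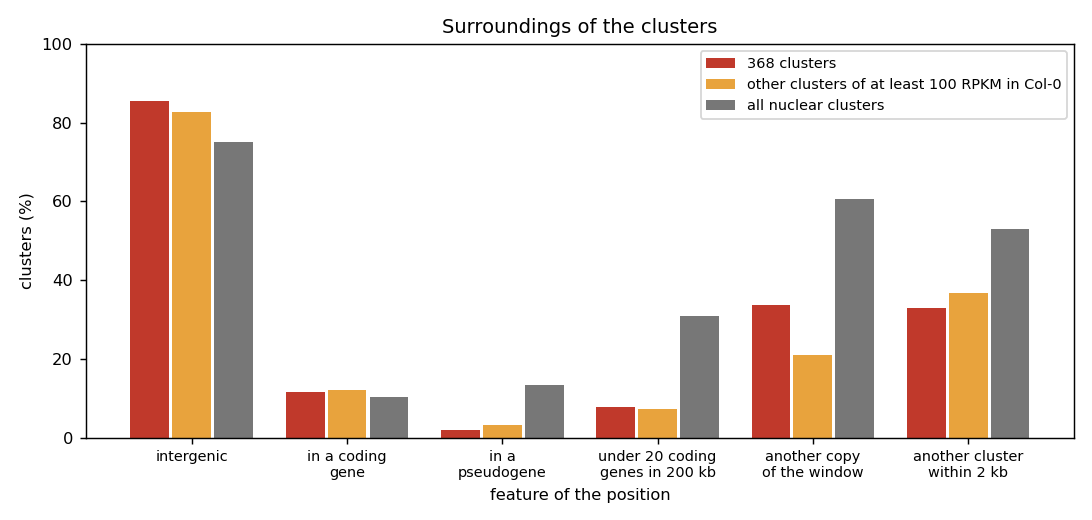
Percentage of clusters with each feature of the position (bars), for the 368 clusters, the 291 other clusters with at least 100 RPKM in Col-0 and the 12902 clusters on nuclear chromosomes. Clusters in pseudogenes and in stretches with under 20 coding genes were 1.90% and 7.88% of the 368, against 13.3% and 30.8% of all nuclear clusters.

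Almost nothing was left at these clusters in any mutant. The median level was 0.668 RPKM in AAA-YPMF, 0.19 RPKM in CYC-AAAA, 0.28 RPKM in clsy1234 and 0.1 RPKM in nrpd1-3, against 139.9 RPKM in WT_D1 and 146.8 RPKM in Col-0. As a share of each cluster's own Col-0 mean, the median was 0.408% in AAA-YPMF, 0.119% in CYC-AAAA, 0.174% in clsy1234 and 0.0664% in nrpd1-3, and 92.4% in WT_D1. Over all clusters, whose median Col-0 level was 11.4 RPKM, the median share was 1.58% in AAA-YPMF, 0.597% in CYC-AAAA, 0.256% in clsy1234, 0.0990% in nrpd1-3 and 131.3% in WT_D1. The 3 mutants whose values the selection did not use all kept under 1% of the Col-0 level at the typical cluster.

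The replicates of each genotype gave different medians. In replicates 1 and 2, the median share was 0.340 and 0.488% in AAA-YPMF, 0.127 and 0.0922% in CYC-AAAA, 0.109 and 0.218% in clsy1234, 0.0559 and 0.0647% in nrpd1-3 and 95.5 and 88.8% in WT_D1. AAA-YPMF lay above the other mutants in both replicates, while the ranges of CYC-AAAA and clsy1234 overlapped. Single clusters reached 6.36 RPKM in AAA-YPMF, 3.54 RPKM in CYC-AAAA, 1.255 RPKM in clsy1234 and 0.495 RPKM in nrpd1-3 as genotype means.

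**Figure D2:**
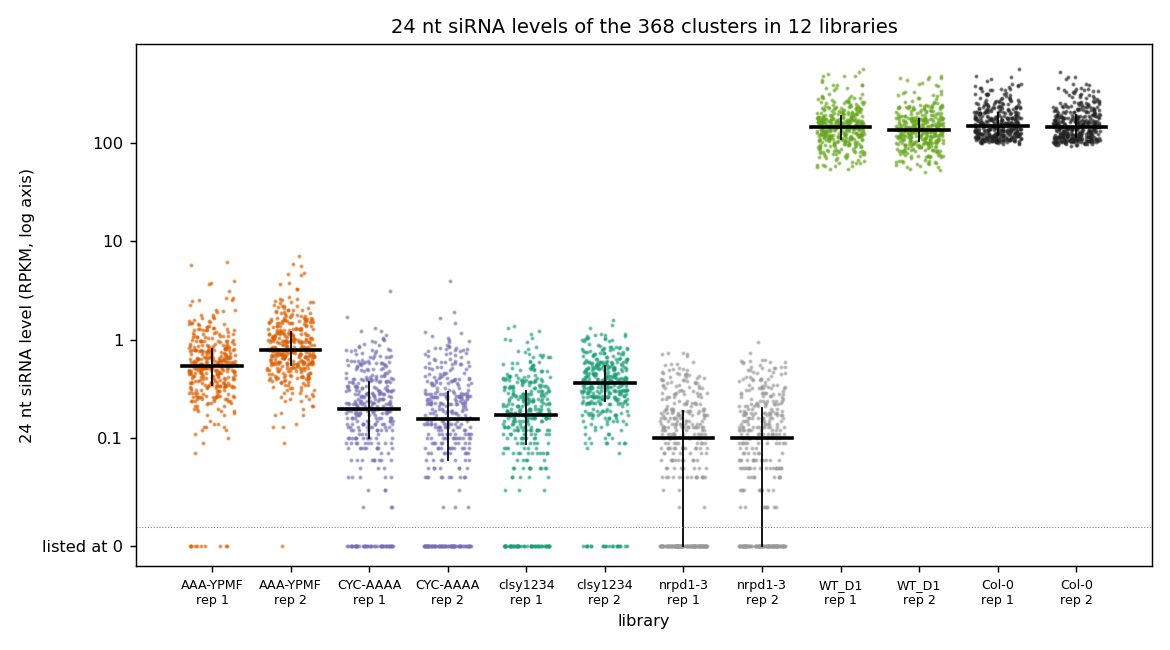
Levels of 24 nt siRNAs (RPKM, log axis, values of 0 drawn on a line of their own) at the 368 clusters in each of the 12 libraries, with 1 point per cluster. Thick bars are medians and thin lines span the quartiles, and the medians were 0.535 and 0.78 RPKM in AAA-YPMF and at or below 0.36 RPKM in the other 6 mutant libraries, against 134.0 to 147.6 RPKM in WT_D1 and Col-0.

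Replicate 2 stood above replicate 1 in AAA-YPMF at 280 of the 368 clusters and in clsy1234 at 274. Summed over these clusters, replicate 2 had 1.44 times the RPKM of replicate 1 in AAA-YPMF and 1.80 times in clsy1234, against 0.886 times in CYC-AAAA and 1.07 times in nrpd1-3. The relative depth of the replicates, read from the most frequent ratio of their lowest values, was 1.05 in AAA-YPMF, 1.06 in CYC-AAAA, 1.24 in clsy1234 and 1.24 in nrpd1-3 (replicate 2 over replicate 1). Levels in clsy1234 replicate 2 also followed the Col-0 level across the 368 clusters (Spearman's rho 0.53, as a description), whereas rho was 0.12 in clsy1234 replicate 1 and 0.094 and 0.093 in the CYC-AAAA libraries. In replicates 1 and 2, rho was 0.34 and 0.35 in AAA-YPMF and 0.11 and -0.028 in nrpd1-3. The part of these library differences in the results below was not tested.

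Traces of siRNA were present at nearly all of these clusters in AAA-YPMF and at fewer in the other mutants. Both libraries had a value above 0 at 357 clusters in AAA-YPMF (97.0%), at 269 in CYC-AAAA (73.1%), at 305 in clsy1234 (82.9%) and at 205 in nrpd1-3 (55.7%). Over the whole table these shares were 72.0%, 49.5%, 35.2% and 25.9% in the same order of genotypes. Clusters listed at 0 in both libraries numbered 0 in AAA-YPMF, 16 in CYC-AAAA, 9 in clsy1234 and 45 in nrpd1-3. Both libraries were under 1 RPKM at 61.7, 96.5 and 94.8% of the 368 in AAA-YPMF, CYC-AAAA and clsy1234. Over all clusters these shares were 93.1, 97.8 and 98.2%. A level of at least 1 RPKM in both libraries was seen at 55 clusters in AAA-YPMF, 3 in CYC-AAAA and 1 in clsy1234. In single libraries, replicates 1 and 2, it was seen at 62 and 134 clusters in AAA-YPMF, 8 and 8 in CYC-AAAA and 6 and 14 in clsy1234.

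The first comparison between mutants asked whether replacing the CYC residues and replacing the YPMF residues left different amounts of siRNA. AAA-YPMF had a higher mean than CYC-AAAA at 350 of the 368 clusters, a lower mean at 17 and the same at 1. Both AAA-YPMF libraries were above both CYC-AAAA libraries at 292 clusters (79.3%), against 43% of all clusters, and below them at 7 (1.90%), against 3.8% of all clusters. At the 291 other clusters with at least 100 RPKM in Col-0, these shares were 71.8% and 5.50%. The median log2 fold change, on the log2(RPKM + 1) scale, was 0.48 over the 368 clusters and 0.11 over all clusters. Adding 1 shrinks differences at levels under 1 RPKM. In AAA-YPMF both libraries were under 1 RPKM at 61.7% of the 368 and at 93.1% of all clusters. The 368 and the whole table therefore cannot be ranked by medians on this scale.

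No single cluster among them passed the limits for a call, which were a log2 fold change of 1 or more in either direction together with an adjusted p below 0.01 from limma. The count was 0 of 368 in AAA-YPMF over CYC-AAAA, against 0% of all clusters called, although 202 of the 368 (54.9%) were higher and 2 (0.543%) lower at an unadjusted p under 0.05, against 25.3% and 1.21% of all clusters. On the log2(RPKM + 1) scale 22 of the 368 (5.98%) were at least 2-fold higher and 0 lower, so few could pass the fold limit. Over all clusters 0.680% were at least 2-fold higher. Without the fold limit 0 of the 368 were called, against 0% of all clusters. With an adjusted p under 0.05 in place of 0.01, 6 were called higher and 0 lower, 1.63% of the 368 against 0.286% of all clusters. None of the 368 reached that limit in the fit of the 4 libraries compared, where the smallest adjusted p was 0.0869, with the replicate block (0.0885), or without clsy1234 replicate 1 (0.0726), clsy1234 replicate 2 (0.0835), CYC-AAAA replicate 1 (0.0764) or CYC-AAAA replicate 2 (0.0901), all from limma. When all 12 libraries entered the fit, 7 were called, 1.90% against 0.433%. A pseudocount of 0.1 and a fit without the trend each left 0 of the 368 called, against 0.0309% of all clusters. Among clusters with a mean over 0.5 RPKM or equal to it, 10 of the 122 that passed were called higher, 8.20% against 7.21% of all 777 such clusters. That filter uses the libraries compared, so a cluster passes it more readily where AAA-YPMF is high, and nothing is read from these shares.

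Those 6 clusters, named after their values were seen, are merged_2_1206413, merged_3_10006169, merged_3_7703661, merged_5_20089619, merged_2_6901638 and merged_2_4965431. All 6 are intergenic. At merged_3_10006169 the levels were 3.90 and 4.80 RPKM in AAA-YPMF against 0.40 and 0.27 RPKM in CYC-AAAA, and the log2 fold change was 2.00 ± 0.15 (SE, limma adjusted p = 0.0152). At merged_2_1206413 they were 6.11 and 5.92 RPKM in AAA-YPMF against 1.32 and 1.17 RPKM in CYC-AAAA, and the log2 fold change was 1.64 ± 0.12 (SE, limma adjusted p = 0.0152). The 2 replicates lay close together at both clusters and the genotypes did not overlap. Both clusters were picked by their limma result in these same libraries, so this follows from the choice and is no further evidence.

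The second comparison set the CYC replacement against loss of the 4 CLSY proteins. AAA-YPMF had a higher mean than clsy1234 at 337 clusters, and between 299 and 348 when either library of either genotype was left out. Both AAA-YPMF libraries were above both clsy1234 libraries at 231 clusters (62.8%), against 52.5% of all clusters, and below them at 4 (1.09%), against 2.18%. The median log2 fold change was 0.39 over the 368 clusters and 0.15 over all clusters. These medians cannot be ranked, because the log2(RPKM + 1) scale shrinks low levels. Median levels in AAA-YPMF and clsy1234 were 0.668 and 0.28 RPKM at the 368, and 0.175 and 0.04 RPKM over all clusters. On the log2(RPKM + 1) scale 29 of the 368 (7.88%) were at least 2-fold higher and 0 lower, against 1.36% of all clusters higher. At the limits for a call 0 of 368 passed, against 0.00773% of all clusters called higher, while 157 (42.7%) were higher and 2 (0.543%) lower at an unadjusted p under 0.05, against 34.5% and 0.711% of all clusters.

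With an adjusted p under 0.05, 22 clusters were called higher in AAA-YPMF than in clsy1234, 5.98% of the 368 against 1.07% of all clusters, and all 6 clusters named above were among them. With the replicate block none of the 368 reached that limit, the smallest limma adjusted p being 0.0663. The fit over all 12 libraries called 23, 6.25% against 1.22%. The fit without the trend called 0, against 0.0541% of all clusters, and a pseudocount of 0.1 called 1, against 0.116%. Among the clusters that averaged 0.5 RPKM or more, 25 of 122 were called, 20.5% against 19.3% of all 777, and again nothing is read from these shares. The largest difference was at merged_4_3766781, with 5.68 and 7.04 RPKM in AAA-YPMF against 0.58 and 0.30 RPKM in clsy1234 and a log2 fold change of 2.35 ± 0.17 (SE, limma adjusted p = 0.0134). These 2 comparisons share the AAA-YPMF libraries, so the overlap between their clusters is no separate evidence.

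The third comparison set the YPMF replacement against loss of the CLSY proteins, and here the order depended on a single library. CYC-AAAA had a lower mean than clsy1234 at 252 of the 368 clusters and a higher one at 108. Without clsy1234 replicate 2, CYC-AAAA was higher at 201. Both CYC-AAAA libraries were below both clsy1234 libraries at 93 clusters (25.3%), against 7.2% of all clusters, and above them at 45 (12.2%), against 24.8% of all clusters. The median log2 fold change was -0.09 over the 368 clusters, 0.03 over all clusters, and 0.03 over the 368 clusters without clsy1234 replicate 2.

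No cluster was called in CYC-AAAA over clsy1234, against 0.00773% of all clusters called higher, and 15 were higher (4.08%) and 15 lower (4.08%) at an unadjusted p under 0.05, against 6.90% and 2.16% of all clusters. The smallest adjusted p was that of merged_4_3766781, with 3.15 and 3.93 RPKM in CYC-AAAA against 0.58 and 0.30 RPKM in clsy1234 and a log2 fold change of 1.66 ± 0.17 (SE, limma adjusted p = 0.118). This was the only 1 of the 368 clusters with a 2-fold difference between CYC-AAAA and clsy1234 on the log2(RPKM + 1) scale. That is 0.272% of the 368, against 0.201% of all clusters at least 2-fold higher. The fit over all 12 libraries called 1 higher, 0.272% against 0.1% of all clusters.

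**Figure D3:**
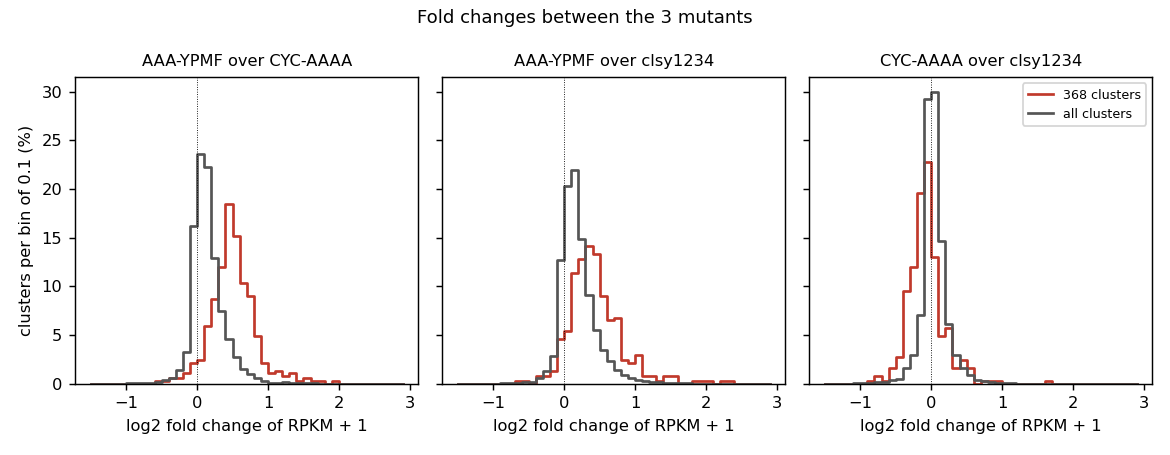
Distribution of log2 fold changes of RPKM + 1 (percentage of clusters per bin of 0.1) for the 368 clusters and for all 12939 clusters in the 3 comparisons between mutants. The 368 clusters have medians of 0.48 in AAA-YPMF over CYC-AAAA, 0.39 in AAA-YPMF over clsy1234 and -0.09 in CYC-AAAA over clsy1234, against 0.11, 0.15 and 0.03 over all clusters. The scale shrinks differences at levels under 1 RPKM, so the 368 and the whole table cannot be ranked by these medians.

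The 291 other clusters with at least 100 RPKM in Col-0, most of which the transgene restored less well, set the 368 beside loci of similar wild-type level. Their median share of the Col-0 level was 0.274% in AAA-YPMF and 0.0527% in CYC-AAAA, against 0.408% and 0.119% at the 368 clusters, and 0.191% in clsy1234, against 0.174%. Both AAA-YPMF libraries were above both CYC-AAAA libraries at 79.3% of the 368 and at 71.8% of the 291. They were above both clsy1234 libraries at 62.8% of the 368 and at 37.8% of the 291. Both CYC-AAAA libraries were below both clsy1234 libraries at 25.3% of the 368 and at 52.2% of the 291. The transgenic lines had lower shares at the 291, where WT_D1 itself was at a median of 30.7% of Col-0. So did nrpd1-3, which has no transgene. Its median share at the 291 was 0.0378% in replicate 1 and 0.0291% in replicate 2, against 0.0559% and 0.0647% at the 368. In clsy1234, which has no transgene, the median share at the 291 was 0.144% in replicate 1 and 0.210% in replicate 2, against 0.109% and 0.218% at the 368, so the replicates went in different directions. This comparison carries no test, because WT_D1 sorted most clusters into the 2 sets.

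The share left is given here by the level of WT_D1 relative to Col-0, as a description only. The selection used both of those values and limited their difference, and the Col-0 mean also divides each share. WT_D1 was above Col-0 at 161 clusters and below it at 207. The median share left in AAA-YPMF was 0.605% at the 161 and 0.344% at the 207, in CYC-AAAA 0.173% and 0.0847%, in clsy1234 0.210% and 0.149%, and in nrpd1-3 0.0767% and 0.0620%. Split into 3 sets of 123, 122 and 123 by the log2 difference between WT_D1 and Col-0, the clusters had AAA-YPMF medians of 0.318, 0.409 and 0.657%. The order was the same in each AAA-YPMF library, with 0.263, 0.340 and 0.504% in AAA-YPMF replicate 1 and 0.361, 0.507 and 0.827% in AAA-YPMF replicate 2.

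Spearman's rho between the log2 difference of WT_D1 from Col-0 and the share left was 0.59 in AAA-YPMF, 0.42 in CYC-AAAA, 0.35 in clsy1234 and 0.16 in nrpd1-3 over the 368 clusters. These are descriptions across clusters of the same libraries, and both measures are divided by the same Col-0 values. Without that division, rho between RPKM in WT_D1 and RPKM in AAA-YPMF was 0.61, and between Col-0 and AAA-YPMF 0.37. With WT_D1 and with Col-0, rho was 0.34 and 0.082 in CYC-AAAA, 0.50 and 0.45 in clsy1234, which has no transgene, and 0.11 and 0.046 in nrpd1-3.

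**Figure D4:**
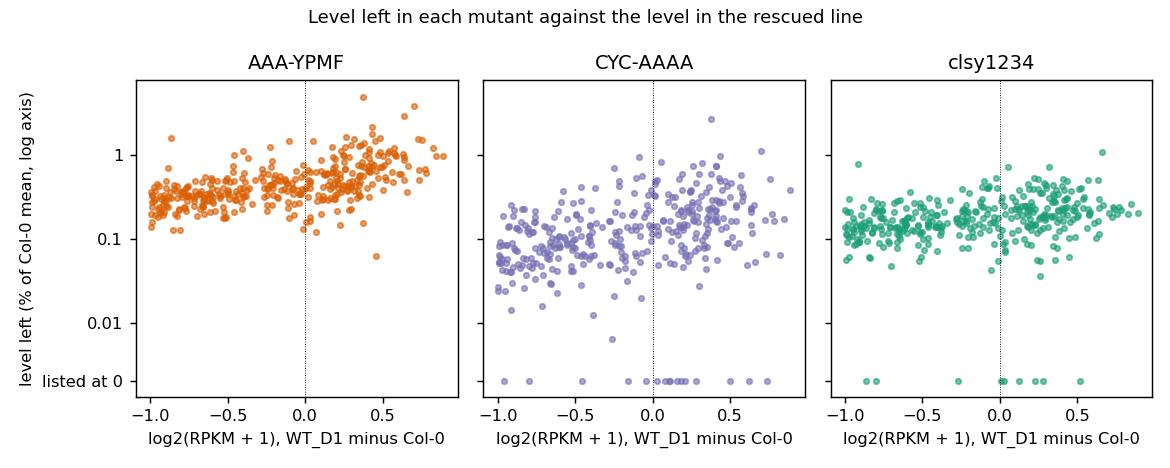
Level left in AAA-YPMF, CYC-AAAA and clsy1234 (% of the Col-0 mean, log axis, values of 0 drawn on a line of their own) against the difference of WT_D1 from Col-0 in log2(RPKM + 1), with 1 point for each of the 368 clusters. The AAA-YPMF median is 0.318% in the 123 clusters with the lowest WT_D1 level relative to Col-0 and 0.657% in the 123 with the highest.

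At least 1% of the Col-0 level was left at 36 clusters in AAA-YPMF, at 2 in CYC-AAAA and at 1 in clsy1234. These were 9.78, 0.543 and 0.272% of the 368. Over all clusters the median share in AAA-YPMF was itself above that limit, at 1.58%. It was 0.597% in CYC-AAAA and 0.256% in clsy1234. The Col-0 level divides each share and was selected to be high here, so the counts depend on the selection. In single libraries, replicates 1 and 2, the counts were 25 and 50 in AAA-YPMF, 3 and 5 in CYC-AAAA and 1 and 0 in clsy1234. Both clusters of CYC-AAAA were among the 36, and that of clsy1234 was not. Of the 36, 32 were clusters where WT_D1 was above Col-0, and 10 lay in stretches with under 20 coding genes in 200 kb. In those gene-poor stretches, which hold 29 of the 368 clusters, the median share left was 0.767% in AAA-YPMF, 0.236% in CYC-AAAA, 0.188% in clsy1234 and 0.0518% in nrpd1-3. At the 339 others it was 0.401% in AAA-YPMF, 0.111% in CYC-AAAA, 0.171% in clsy1234 and 0.0686% in nrpd1-3. WT_D1 moved with this split, at a median of 133.2% of Col-0 in the gene-poor stretches and 89.2% elsewhere, and its part in the difference was not tested.

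By other features of the position, the AAA-YPMF median was 0.50% at the 43 clusters in coding genes, 0.402% at the 315 intergenic ones and 0.887% at the 7 in pseudogenes. It was 0.458% at the 124 clusters with another copy in the genome and 0.401% at the 244 without. By chromosome the medians ran between 0.382 and 0.427% in AAA-YPMF, between 0.0947 and 0.130% in CYC-AAAA and between 0.146 and 0.191% in clsy1234.

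The clusters with the highest wild-type levels were also nearly empty in the mutants. The highest was merged_5_8813227 on chromosome 5, at position 8813227, which lies 1290 bases from AT5G25380, a gene for an A2-type cyclin. It had 1.68 and 4.60 RPKM in AAA-YPMF, 0.39 and 0.25 RPKM in CYC-AAAA, 0.15 and 1.31 RPKM in clsy1234, 0.18 and 0.00 RPKM in nrpd1-3 and 473.2 and 461.5 RPKM in WT_D1, against 555.3 and 516.2 RPKM in Col-0. The AAA-YPMF and clsy1234 replicates lay far apart, with replicate 2 higher in both. The log2 fold change of AAA-YPMF over CYC-AAAA was 1.56 here but was not called (limma adjusted p = 0.162).

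The next was merged_4_7250427 on chromosome 4, 2300 bases from AT4G12100. It had 0.79 and 2.22 RPKM in AAA-YPMF, 0.06 and 0.00 RPKM in CYC-AAAA, 0.42 and 0.62 RPKM in clsy1234, 0.17 and 0.00 RPKM in nrpd1-3 and 385.3 and 398.4 RPKM in WT_D1, against 476.9 and 463.7 RPKM in Col-0. CYC-AAAA was below clsy1234 in both libraries at this cluster. Here CYC-AAAA kept 0.0064% of the Col-0 level and clsy1234 0.111%.

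The other 6 of the 8 highest clusters had between 375.8 and 459.8 RPKM in Col-0. merged_2_16172024 lies 106 bases from PECT1, an enzyme gene of phosphatidylethanolamine synthesis, merged_4_2520873 811 bases from the glutaredoxin gene GRXS17, merged_1_9204998 802 bases from FBR12, which encodes a translation factor, and merged_2_786688 1197 bases from IQD29. merged_2_7695174 lies 428 bases from AT2G17710. At these 5 clusters AAA-YPMF kept between 0.246 and 0.375% of the Col-0 level, CYC-AAAA between 0.016 and 0.109% and clsy1234 between 0.0891 and 0.270%.

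The remaining 1 of the 8, merged_2_1206413 on chromosome 2, was different. It had 6.11 and 5.92 RPKM in AAA-YPMF, 1.32 and 1.17 RPKM in CYC-AAAA, 0.38 and 0.68 RPKM in clsy1234, 0.11 and 0.09 RPKM in nrpd1-3 and 496.0 and 449.2 RPKM in WT_D1, against 379.9 and 379.6 RPKM in Col-0. The genotypes followed a strict order without overlap of their libraries, and AAA-YPMF kept 1.58% of the Col-0 level. Its neighbour merged_2_1207171, 758 bases away, kept 1.64% in AAA-YPMF, 0.746% in CYC-AAAA and 0.128% in clsy1234. The position of merged_2_1206413 is intergenic, 164 bases from AT2G03930.

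In 5 pairs the 2 clusters were at most 2 kb apart, and their shares in AAA-YPMF were 1.58 and 1.64%, 0.630 and 1.52%, 1.23 and 1.03%, 0.267 and 0.220%, and 0.566 and 0.420%. In CYC-AAAA the shares of the same pairs were 0.328 and 0.746%, 0.0893 and 0.522%, 0.285 and 0.236%, 0.276 and 0.0374%, and 0.153 and 0.140%. The CYC-AAAA shares thus differed more than 2-fold in 3 of the 5 pairs, and those of clsy1234 did so in 1, with 0.283 and 0.0862%. Members of a pair need not be separate loci.

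The cluster that kept the most siRNA in both NRPD1 variants was merged_4_3766781 on chromosome 4, at position 3766781. It lies between genes, 110 bases from the transcription factor gene YY1, with 2 coding genes in the 200 kb around it and 6 other copies of its first 300 bases. It had 5.68 and 7.04 RPKM in AAA-YPMF, 3.15 and 3.93 RPKM in CYC-AAAA, 0.58 and 0.30 RPKM in clsy1234, 0.13 and 0.21 RPKM in nrpd1-3 and 177.4 and 157.9 RPKM in WT_D1, against 137.4 and 120.7 RPKM in Col-0. AAA-YPMF kept 4.93% of the Col-0 level, CYC-AAAA 2.74% and clsy1234 0.341%, and no libraries of these 3 genotypes overlapped. This window had the lowest GC content of those printed above.

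The next in AAA-YPMF was merged_5_19967664, 137 bases from AT5G49260 in a stretch with 45 coding genes. It had 2.64 and 5.63 RPKM in AAA-YPMF, 0.79 and 1.65 RPKM in CYC-AAAA, 0.00 and 0.44 RPKM in clsy1234, 0.22 and 0.35 RPKM in nrpd1-3 and 188.2 and 164.8 RPKM in WT_D1, against 104.9 and 110.9 RPKM in Col-0. Replicate 2 was about 2-fold higher in both variants, and the lowest AAA-YPMF library still exceeded the highest CYC-AAAA library. AAA-YPMF kept 3.83% and CYC-AAAA 1.13%.

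Another cluster, merged_2_2602290, had little spread between replicates. It had 3.70 and 4.51 RPKM in AAA-YPMF, 1.70 and 1.93 RPKM in CYC-AAAA, 0.38 and 0.51 RPKM in clsy1234, 0.14 and 0.17 RPKM in nrpd1-3 and 272.8 and 233.5 RPKM in WT_D1, against 189.5 and 184.0 RPKM in Col-0. The order of the 3 mutants was the same as at merged_4_3766781, and AAA-YPMF exceeded clsy1234 with a log2 fold change of 1.82 ± 0.12 (SE, limma adjusted p = 0.0133). It lies 452 bases from the pseudogene AT2G06550 with 13 coding genes in 200 kb.

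At merged_3_10006169, by contrast, CYC-AAAA was as low as clsy1234. AAA-YPMF kept 2.92% of the Col-0 level there, CYC-AAAA 0.225% and clsy1234 0.232%. merged_5_14301925 completed the 5 with the largest share in AAA-YPMF, at 2.27 and 1.34 RPKM in AAA-YPMF, 0.00 and 0.54 RPKM in CYC-AAAA, 0.22 and 0.17 RPKM in clsy1234 and 0.00 and 0.62 RPKM in nrpd1-3, against 100.8 and 101.3 RPKM in Col-0. The nrpd1-3 replicates at this cluster differed more than those of clsy1234.

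**Figure D5:**
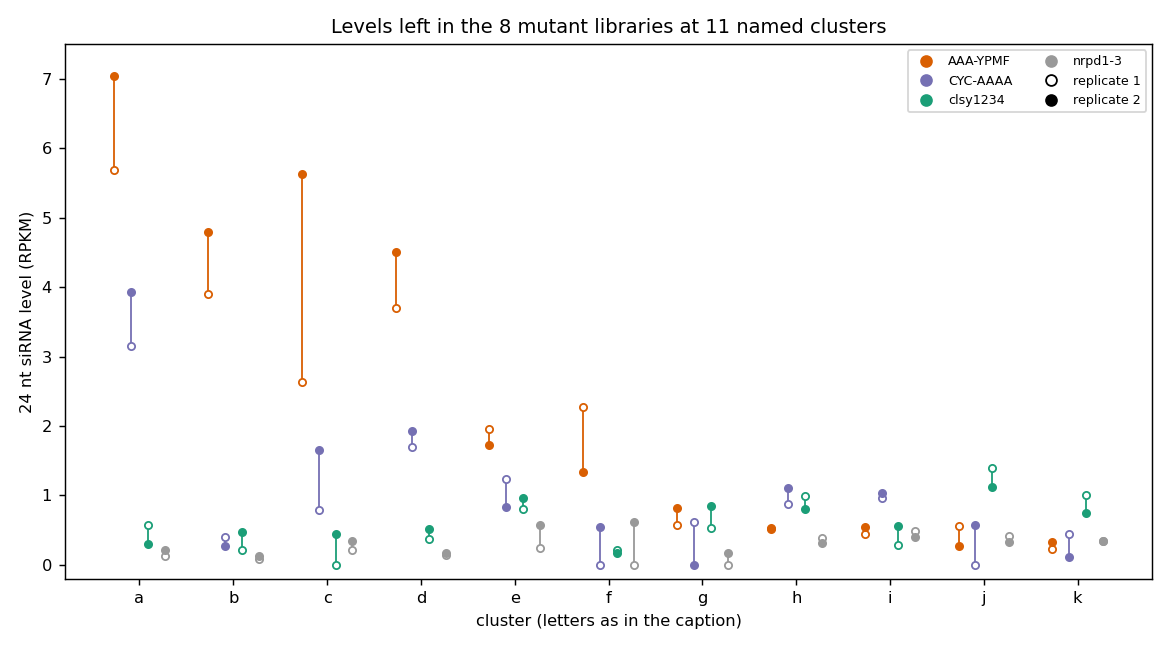
Levels of 24 nt siRNAs (RPKM) in the 2 libraries of AAA-YPMF, CYC-AAAA, clsy1234 and nrpd1-3 at 11 clusters, with open circles for replicate 1, filled circles for replicate 2 and a line between them. The letters a to k stand for merged_4_3766781, merged_3_10006169, merged_5_19967664, merged_2_2602290, merged_3_8356831, merged_5_14301925, merged_5_4076649, merged_3_22932005, merged_3_18339627, merged_3_8597881 and merged_1_12083568, in falling order of the AAA-YPMF mean, and clsy1234 is the highest at the last 2.

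A few clusters departed from the general order. At merged_3_18339627 the levels were 0.45 and 0.54 RPKM in AAA-YPMF, 0.97 and 1.03 RPKM in CYC-AAAA, 0.28 and 0.56 RPKM in clsy1234 and 0.49 and 0.40 RPKM in nrpd1-3, against 100.7 and 108.6 RPKM in Col-0. At merged_3_22932005 they were 0.53 and 0.51 RPKM in AAA-YPMF, 0.87 and 1.10 RPKM in CYC-AAAA, 0.99 and 0.80 RPKM in clsy1234 and 0.39 and 0.32 RPKM in nrpd1-3, against 133.4 and 110.3 RPKM in Col-0. Both CYC-AAAA libraries were above both AAA-YPMF libraries at these 2 clusters, which belong to the 7 noted above.

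The largest share in clsy1234 was 1.10%, at merged_3_8597881 on chromosome 3. It had 0.56 and 0.27 RPKM in AAA-YPMF, 0.00 and 0.58 RPKM in CYC-AAAA, 1.39 and 1.12 RPKM in clsy1234, 0.41 and 0.33 RPKM in nrpd1-3 and 197.5 and 166.0 RPKM in WT_D1, against 114.4 and 114.5 RPKM in Col-0. Both clsy1234 libraries were above all libraries of AAA-YPMF, CYC-AAAA and nrpd1-3. The nearest annotated gene, the long non-coding RNA AT3G04595, is 4217 bases away.

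merged_1_12083568 again had its highest levels in clsy1234. Its first base lies in an exon of AT1G33320, but the gene ends at position 12083619, so most of the 300-base window is outside it. They were 0.23 and 0.33 RPKM in AAA-YPMF, 0.44 and 0.12 RPKM in CYC-AAAA, 1.01 and 0.75 RPKM in clsy1234 and 0.34 and 0.34 RPKM in nrpd1-3, against 111.1 and 110.2 RPKM in Col-0. At merged_3_8356831 all 3 mutants kept more than at most clusters, with 1.96 and 1.72 RPKM in AAA-YPMF, 1.23 and 0.84 RPKM in CYC-AAAA, 0.81 and 0.97 RPKM in clsy1234 and 0.24 and 0.58 RPKM in nrpd1-3, against 122.1 and 123.7 RPKM in Col-0. The CYC-AAAA and clsy1234 libraries overlapped there.

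merged_5_4076649 had 0.57 and 0.82 RPKM in AAA-YPMF, 0.62 and 0.00 RPKM in CYC-AAAA and 0.53 and 0.85 RPKM in clsy1234, against 138.8 and 119.9 RPKM in Col-0. merged_3_9702901 had 1.65 and 1.72 RPKM in AAA-YPMF, 0.00 and 0.46 RPKM in CYC-AAAA and 1.30 and 0.59 RPKM in clsy1234, against 311.9 and 263.9 RPKM in Col-0. The highest single value in clsy1234 was the 1.60 RPKM of replicate 2 at merged_1_9204998, where replicate 1 had 0.52 RPKM. Of the 3 mutants, AAA-YPMF had the highest mean at 329 of the 368 clusters (89.4%), clsy1234 at 24 and CYC-AAAA at 14, with a tie at 1. AAA-YPMF was the highest at 289 without AAA-YPMF replicate 2, at 303 without clsy1234 replicate 1, and at 324 to 340 without each of the other 4 libraries. Over the 12460 clusters with any siRNA in these mutants, AAA-YPMF was the highest at 74.4%.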

How the data were processed

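The authors used cutadapt for trimming and ShortStack for mapping to TAIR10, with multi-mapped reads placed by its fractional-seeded option. They kept perfect matches or a single mismatch at the 3′ end. HOMER 4.10 gave the deposited RPKM values of 24 nt reads, with 2 decimals. A cluster with copies elsewhere can therefore hold reads assigned from them. Another 5 samples of the series were not analysed here. The clusters, lists and tests were chosen with earlier results of these data known.

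Values were taken to log2(RPKM + 1) and fitted with limma 3.58.1 in R 4.3.3 (eBayes with a trend) over all 12939 clusters. The 6 libraries of AAA-YPMF, CYC-AAAA and clsy1234 entered, which the selection did not use. The count test of the study needs reads, so limma took its place. P-values are two-sided and adjusted by Benjamini-Hochberg. Positions were read as 1-based starts on TAIR10.1, which has the same nuclear chromosomes, and annotated from RefSeq. Copies were sought with BLAST 2.17.0. Clusters named are the 8 highest in Col-0, the 5 with the largest share and the 3 with the highest RPKM left in each of AAA-YPMF, CYC-AAAA and clsy1234, and those at the limits of the selection. A further 5 clusters were named after their values were seen. The alternatives were another pseudocount, filter, set of libraries, p or fold limit, scaling, no trend, a replicate block and each replicate left out. Tables and plots were made with pandas 2.3.3 and matplotlib 3.10.9.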

Additional observations from a re-analysis of the deposited data

How the results depend on the processing

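The counts of calls depended on the limits and on the libraries that set the spread. With a pseudocount of 0.1, the calls in AAA-YPMF over CYC-AAAA, AAA-YPMF over clsy1234 and CYC-AAAA over clsy1234 were 0, 1 and 0 among the 368 clusters and 4, 15 and 1 among all clusters, and the median log2 fold changes of the 368 were 1.48, 1.14 and -0.31. Among clusters that averaged 0.5 RPKM or more, calls were 10, 25 and 1 among the 122 of the 368 that passed and 57, 151 and 24 among all 777, and the medians were 0.71, 0.71 and -0.01. The fit over 12 libraries called 7, 23 and 1 of the 368 and 57, 159 and 15 of all clusters. An adjusted p under 0.05 gave 6, 22 and 0 of the 368 and 37, 140 and 1 of all clusters. Without the trend, 0 of the 368 and 4, 7 and 1 of all clusters were called. The 4 libraries compared gave 0 in every case.

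With single replicates left out, calls among the 368 ranged from 0 to 3, 0 to 9 and 0 to 0, and among all clusters from 0 to 29, 0 to 67 and 0 to 0. The highest counts, 3 and 9 of the 368, were without AAA-YPMF replicate 1, with 1 and 1 without AAA-YPMF replicate 2, and the lone library was then assumed to vary like the other genotypes. The number of the 368 clusters with a higher mean, a count added after the data were seen, ranged from 324 to 354, 299 to 348 and 99 to 201, and was 357, 336 and 78 after rescaling by median ratios, which rests on 79 clusters that include 0 of the 368. From RPKM summed over the 368 clusters, the share of Col-0 left was 0.510% in AAA-YPMF, 0.156% in CYC-AAAA, 0.188% in clsy1234 and 0.0823% in nrpd1-3. The median share of WT_D1 was 0.0778% in nrpd1-3 and is not given here for the other mutants. With single replicates left out, the median share of Col-0 ranged from 0.340 to 0.488% in AAA-YPMF and from 0.0922 to 0.127% in CYC-AAAA. It ranged from 0.109 to 0.218% in clsy1234 and from 0.0559 to 0.0647% in nrpd1-3.

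With the replicate number as a block, 0 of the 368 clusters and 0, 0 and 1 of all clusters were called. The labels do not say that equal numbers share a batch, and deviations of same-numbered libraries correlated at -0.015, 0.046 and -0.0034 across all clusters and at -0.047, 0.144 and -0.012 across the 368, so no pairing was used. The 19 fold changes between mutants that were 2-fold or more at clusters named by the stated rule kept their sign under all 284 alternative values, and 25 of these values passed the limits for a call. These fold changes were picked for their size in the same libraries that the alternatives refit. A kept sign was therefore likely in advance, and nothing is concluded from it. The 5 clusters named after their values were seen were not followed. The counts of clusters with at least 1% of Col-0 or with AAA-YPMF highest, without each replicate, were added after the data were seen. The causes of these changes were not tested. At levels under 1 RPKM a value rests on few reads, and 2 libraries per genotype limit each mean.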
